A study of Oryza sativa with 2 samples.

Results

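The Osconst features are 78 of the 1000 features of a rice (Oryza sativa) oligonucleotide array, and they were taken by their identifier alone, the prefix Osconst followed by a number. The remaining features carry the prefixes OsL (438) and OsSC (484) and serve here as background. Each feature is a 26-base oligonucleotide that copies a SuperSAGE tag. SuperSAGE represents a transcript by a short tag cut out of its cDNA by a restriction enzyme that cuts at a distance from the site it recognises, and the tags are then counted by sequencing. An array of such tags measures the same transcripts by hybridisation instead.

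RNA from mature leaf was hybridised to 1 array and RNA from suspension-cultured cells to the other, and total RNA from each was converted to biotin-labelled cRNA before hybridisation. Neither sample has a replicate, so the error of every difference below is unknown and none was tested. The labels give no cultivar, plant age, culture age or treatment for either sample, and no feature is paired with a gene, so the tissues could not be checked against marker genes. The labels do not say what the prefix stands for, so it is not read below as a statement that these transcripts are constant.

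A mature rice leaf is a differentiated tissue whose mesophyll cells devote much of their mRNA to photosynthesis. Suspension-cultured cells are undifferentiated, divide in liquid medium and live on the sugar supplied in it, so photosynthesis genes are typically little expressed there, while genes for ribosomes, cell walls and division are active. Genes that every living plant cell needs, such as those for translation, ubiquitin-dependent protein turnover and the cytoskeleton, are expressed in both. Even such genes commonly differ in level between growing and mature cells, which is why a transcript present in both samples need not be equally abundant in them. No Osconst feature could be assigned to any of these gene groups, since no gene annotation and no tag sequence was at hand. A lookup of the identifiers among 39387 rice genes gave 0 matches. The identifiers are a prefix with a number and not gene names, so this lookup says nothing of the transcripts.

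The Osconst features differed widely in brightness, and most of them stood in the upper part of both arrays. On the leaf array their intensities had a median of 2057, with 79.3 as the lowest and 31837 as the highest. On the cell array the median was 3760, the lowest 69.5 and the highest 33844. The spread among the members therefore covered nearly the whole scale of each array, which spans 76.5 to 60143 in leaf and 58.4 to 51275 in cells. Ranked among all 1000 features of the same array, with 100 as the brightest, the median Osconst feature stood at percentile 60.2 in leaf and at percentile 71.0 in cells. Above the array's own median were 50 of the 78 in leaf (64.1%) and 55 in cells (70.5%).

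Relative to the other prefixes, the Osconst features kept a middle to high place on both arrays. In leaf their median intensity of 2057 lay just under that of OsL, 2519, and above that of OsSC, 698.0. In cells their median of 3760 lay above both OsSC, 2747, and OsL, 309. Osconst was thus the second brightest of the 3 classes in leaf and the brightest in cells. Among the brightest 25% of the array were 24 Osconst features in leaf and 34 in cells. The dimmest 25% held 10 in leaf and 5 in cells. At the very top the picture differed between arrays: 7 Osconst features (8.97%) were among the brightest 10% in leaf and 13 (16.7%) in cells. In leaf those top ranks were mostly taken by OsL, with 86 of its 100 places, so the rank of an Osconst feature depends on which other tags the array carries. Probes bind with different strength, so these ranks describe signal and not how abundant 1 transcript is against another.

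**Figure D1:**
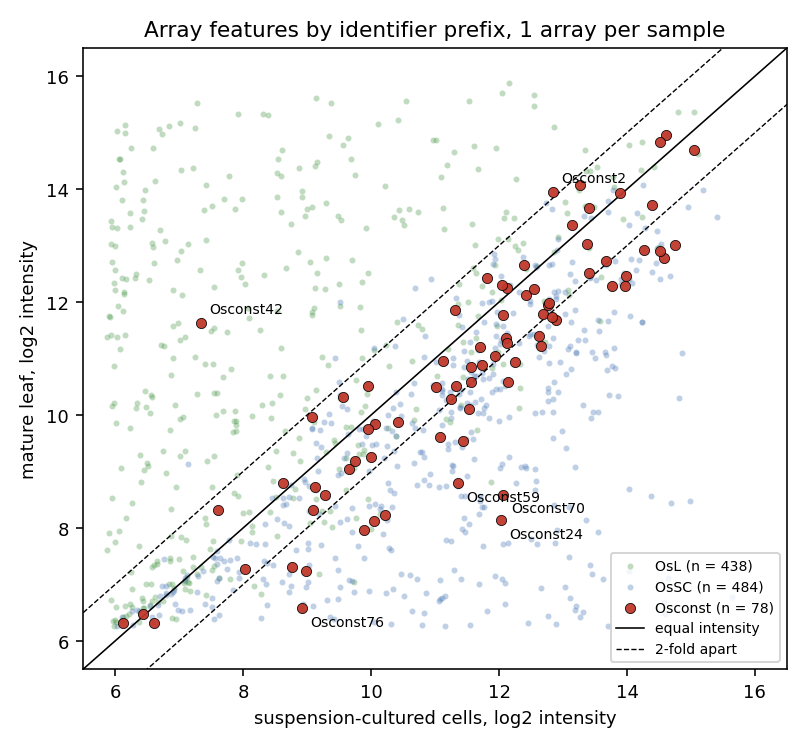
Log2 intensity in mature leaf (vertical axis) against suspension-cultured cells (horizontal axis) for 1000 features, 1 point each, coloured by identifier prefix. The solid line marks equal intensity and the dashed lines a 2-fold difference. The Osconst points follow the diagonal, mostly on its cell side, while OsL and OsSC points spread away from it in opposite directions; Osconst42 is the lone Osconst point far out among the OsL features.

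The brightest Osconst features were bright in both samples. Osconst1 read 26603 in leaf and 33844 in cells, percentiles 96.0 and 99.5. Osconst17 had 31837 in leaf and 24897 in cells, percentiles 97.4 and 98.3, and Osconst3 had 29264 and 23389. These 3 members differed by at most 1.28-fold between the arrays, and they did not lean the same way. Osconst20 (13478 in leaf, 21431 in cells) and Osconst28 (15711 in leaf, 15106 in cells) completed the 5 with the highest mean level.

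At the other end, 3 members were within the dimmest 25% on each array. Osconst78 had the lowest Osconst value on both, 79.3 in leaf and 69.5 in cells. Osconst54 had 79.8 in leaf and 97.2 in cells, and Osconst57 had 89.4 and 86.2. All 3 lay close to the lowest value of their array, and the table carries no detection call, so it is unknown whether they had signal over background and their near equality says nothing of like expression. Osconst73 followed with 156 in leaf and 262 in cells, and Osconst76 with 95.6 in leaf and 486 in cells, which puts Osconst76 near the floor in leaf alone.

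The top of the order was less alike on the 2 arrays than the bottom. Of the 10 brightest Osconst features in leaf and the 10 brightest in cells, 4 were shared, namely Osconst1, Osconst3, Osconst17 and Osconst20. Of the 10 dimmest, 7 were shared. The 6 that were among the brightest 10 in cells alone, named here after their values were seen, were Osconst6, Osconst10, Osconst11, Osconst13, Osconst14 and Osconst25. Osconst6 had 8298 in leaf and 27576 in cells, and Osconst11 had 7054 in leaf and 24485 in cells. The same direction held for the other 4, and all 6 were between 2.56-fold and 3.47-fold higher in cells. Choosing by a place among the brightest 10 on 1 array alone favours a higher value on that array. Their shared direction is therefore no separate result. The 6 nevertheless stayed at percentile 76.0 or above in leaf, so they were bright in both samples. In leaf alone the brightest 10 included Osconst2, Osconst7, Osconst15, Osconst18, Osconst28 and Osconst44, whose differences ran from 1.27-fold higher in cells to 2.14-fold higher in leaf.

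Large differences between leaf and cells were few among the Osconst features. A difference is given as log2 intensity in leaf minus log2 intensity in cells, so a negative value means higher in cells. Within 2-fold lay 51 of the 78 (65.4%), against 41.9% of all 1000 features. At least 4-fold apart were 5 (6.41%), against 37.7% of all features. By prefix, 47.9% of OsL and 33.5% of OsSC features were at least 4-fold apart. The median size of the difference, whichever its direction, was 0.80 in Osconst, a 1.74-fold difference, 1.87 in OsL and 1.32 in OsSC.

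The departures were lopsided. Past 2-fold towards leaf lay 2 Osconst features (2.56%), compared with 25.7% over the whole array. Past 2-fold towards cells lay 25 (32.1%), compared with 32.4% over the whole array. The share towards cells was thus close to that of the whole array, and the share towards leaf was below it. By prefix, 56.2% of OsL and 1.86% of OsSC features lay past 2-fold towards leaf. Few features higher in leaf were thus found in OsSC too. Towards cells the shares were 5.71% in OsL and 56.6% in OsSC. The Osconst balance moved with the scaling between arrays. The Osconst count towards leaf ran from 1 to 11 and that towards cells from 10 to 28 over the scalings tried. The median Osconst difference was -0.74 and that over all features -0.25, which leaves -0.49 for Osconst once the latter is subtracted. A higher value in leaf was found for 20 of the 78 members, against 439 of all 1000 features. By prefix it was found for 353 of the 438 OsL and 66 of the 484 OsSC features. The causes of the Osconst lean, a scale factor between the arrays among them, were not tested.

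In the values as deposited, near equality in the strict sense was not more frequent among Osconst features than over all features. Within 0.25 on the log2 scale lay 10 of the 78 (12.8%), against 13.4% of all features, 12.3% of OsL and 14.5% of OsSC. Without the features dim on both arrays the shares were 8 of 75 for Osconst (10.7%) and 9.07% over all. Centred on all features they were 14.1% for Osconst and 11.7% over all, with OsSC at 14.7%. After quantile normalization they were 12.8% and 11.7%, with OsL at 13.9%. Whether Osconst lay under or over the share of all features thus depended on the setting. The Osconst values were gathered around a point on the cell side of equality rather than around equality itself. When differences were centred on the Osconst median, 23 of the 78 lay within 0.25 (29.5%), against 12.5% of all features, and after removal of a loess curve 19 did (24.4%), against 17.4%. The first of these centres the members on themselves, so some gain follows by construction.

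The 6 features nearest equal intensity covered the whole range of brightness. Osconst57 and Osconst78 were among the dim members described above. Osconst28, at 15711 in leaf and 15106 in cells, was 1.04-fold apart and stood at percentiles 91.8 and 94.1. Osconst36 had 4859 in leaf and 4477 in cells, and Osconst68 had 1992 in leaf and 2220.5 in cells. Osconst48 had 445 in leaf and 394 in cells, a 1.13-fold difference. For Osconst28, Osconst36, Osconst57, Osconst68 and Osconst78, which sample was the higher depended on the scaling, while Osconst48 was higher in leaf under each setting tried. For Osconst28 the difference was 0.06 as deposited, 0.31 when centred on all features and -0.34 after quantile normalization.

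**Figure D2:**
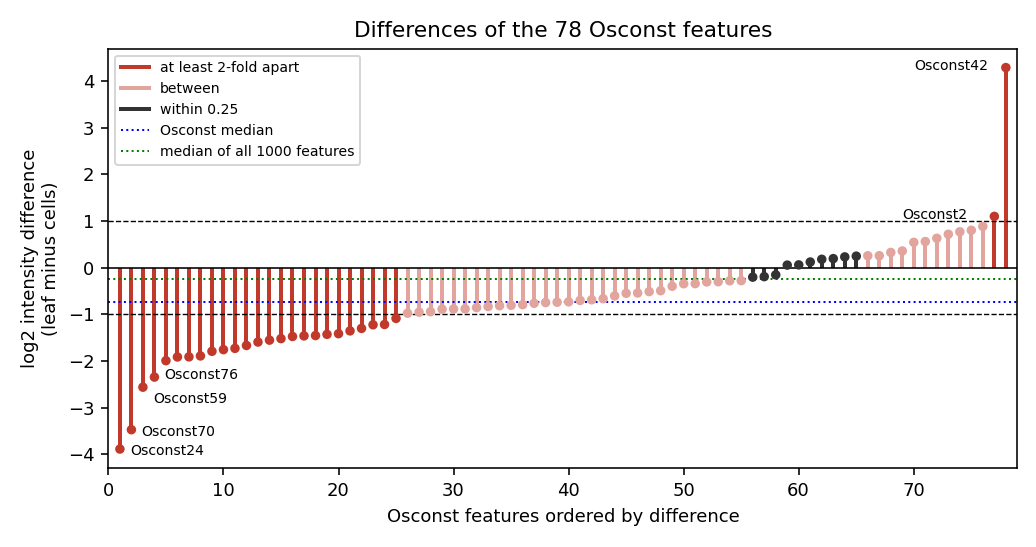
Log2 intensity difference (leaf minus cells, vertical axis) of each of the 78 Osconst features, ordered from the largest difference towards cells to the largest towards leaf. Dashed lines mark 2-fold, and dotted lines mark the Osconst median (-0.74) and the median of all 1000 features (-0.25). From the fifth feature on the values climb without a break to Osconst2 at 1.10; Osconst42 at 4.28 stands alone.

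Osconst42 had the largest difference of all 78 and ran towards leaf. It read 3169.5 in leaf against 163 in cells, which is 4.28 on the log2 scale or 19.5-fold. It stood at percentile 68.3 in leaf and 19.6 in cells, so the cell value lay in the dimmest 25% of that array. With a floor at the lower quartile of each array, the difference was 3.76. No OsSC feature was as far towards leaf (0 of 484), whereas 109 of the 438 OsL features (24.9%) were. The other feature past 2-fold towards leaf, Osconst2, read 15776 in leaf against 7379 in cells, or 1.10 on the log2 scale. It was bright on both arrays, and under quantile normalization it came to 0.87 and no longer reached 2-fold.

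Towards cells, 4 features were at least 4-fold apart. Osconst24 read 283 in leaf against 4189.7 in cells, which is -3.89 on the log2 scale or 14.8-fold. Osconst70 read 385 in leaf against 4285 in cells, or -3.48 on that scale. Both were ordinary in cells, at percentiles 73.6 and 74.7, and low in leaf, at percentiles 24.8 and 30.2. No OsL feature was as far towards cells as either, while 58 of the 484 OsSC features (12.0%) reached the difference of Osconst24. Osconst59 was the next, with 443 in leaf against 2621 in cells and a difference of -2.56, followed by Osconst76 with a difference of -2.35. The leaf value of Osconst76, 95.6, lay near the lowest on that array, and with the floor at the lower quartile its difference was -0.76, under 2-fold. A difference towards cells of the size of Osconst59's was reached by 119 OsSC features (24.6%).

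Below 4-fold the differences formed a continuous series. Osconst61 was just short of it, with 299 in leaf and 1192 in cells, 3.99-fold apart. Osconst77, Osconst63 and Osconst46 came next, between 3.72-fold and 3.78-fold higher in cells. Of these 4, all but Osconst46 stood at percentiles between 23.3 and 25.6 in leaf. In all, 21 features lay between 2-fold and 4-fold higher in cells, with a median intensity of 2394 in leaf and 6325 in cells. Near the 2-fold line there was no gap: Osconst27 and Osconst31 lay just past it at -1.22 and -1.09, and Osconst5 and Osconst58 just short of it at -0.98 and -0.96. Another 30 features were higher in cells by less than 2-fold and more than 0.25 on the log2 scale, and 11 were higher in leaf within the same limits. With the 10 near-equal features and the 2 higher in leaf, these bands hold all 78 members.

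The departing features were not all of 1 kind in brightness. Those at least 4-fold apart towards cells had at most 443 in leaf and stood at percentiles from 5.2 to 32.3 there. Not all were within the dimmest 25%, since Osconst59 and Osconst70 lay above it. Choosing features for a leaf value far under the cell value favours low leaf values. The 21 between 2-fold and 4-fold higher in cells reached from 150.0 up to 8298 in leaf. In cells these 21 reached from 434 up to 27576, and they held both dim members and bright ones such as Osconst6. Across the 78 features the mean level and the size of the difference had a Spearman correlation of -0.055, which describes features of a single pair of arrays.

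Most Osconst features kept a like place in the order of each array. Percentile ranks differed by at most 20 points for 68 of the 78 (87.2%), against 57.2% of all features, and by at most 10 points for 40 (51.3%), against 35.5%. The median shift was -9.8 points, lower in leaf, and 64 features ranked lower in leaf against 13 that ranked higher. Over all features the median shift was -4.6 points, with 625 ranked lower in leaf and 371 higher. It was -14.8 points in OsSC and 17.8 points in OsL, so OsSC leaned further than Osconst. Ranks do not change when 1 array is rescaled as a whole, but they do depend on the other tags present. The largest shift towards leaf was that of Osconst42, 48.7 points, followed by Osconst66 (3702 in leaf and 2547 in cells, 9.5 points) and Osconst51 (997 and 541, 9.4 points). The largest towards cells were those of Osconst24 (-48.8 points), Osconst70 (-44.5) and Osconst59 (-30.0). Apart from Osconst42, no Osconst feature thus gained as much as 10 points in leaf.

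**Figure D3:**
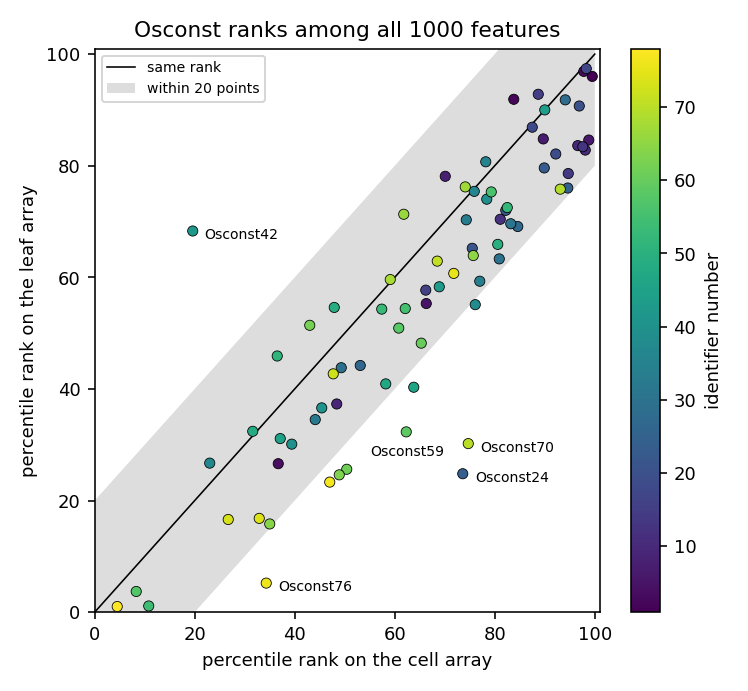
Percentile rank of each Osconst feature among all 1000 features on the leaf array (vertical axis) and on the cell array (horizontal axis), with 100 as the brightest and colour for the identifier number. The grey band marks ranks within 20 points and holds 68 of the 78 features. Most points lie under the line of equal rank, and low numbers (dark) gather at the upper right.

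The identifier number went with the level of the Osconst features on both arrays and hardly with their difference. Across the 78 features the Spearman correlation of number and intensity was -0.58 in leaf and -0.57 in cells, so low numbers were brighter in both. With the log2 difference it was -0.10, and with the size of the difference 0.032. These are descriptions across features that share the same pair of arrays. In the other classes the number went with the size of the difference, with correlations of -0.43 in OsL and -0.22 in OsSC. With level, the correlations in OsL were -0.40 in leaf and 0.17 in cells, and in OsSC they were -0.067 in leaf and -0.31 in cells. In those classes the relation to level thus differed between the arrays, while in Osconst it was nearly the same on both.

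Taken in 6 consecutive sets of 13, the levels came down by steps and not evenly. Features 1 to 13 had a median intensity of 7703 in leaf and 10566 in cells, and features 14 to 26 had 5657 and 9880.5. Features 27 to 39 stood at 3269 in leaf and 4875 in cells. The larger drop came next: features 40 to 52 had 997 in leaf and 990.3 in cells. From there on the medians did not decline further in cells, with 2062 for features 53 to 65 and 2220.5 for features 66 to 78, while in leaf they were 1108 and 864. Through all 6 sets the median difference stayed between -0.86 and -0.30. Each set held 3 to 5 features at least 2-fold higher in cells and 8 to 10 within 2-fold, so departures were spread over the whole numbering.

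Numbers 1 to 39 and numbers 40 to 78 differed in the same way. Among the lower numbers, 7 features were in the brightest 10% of the leaf array and 12 in that of the cell array. Among the higher numbers there were 0 in leaf and 1 in cells. The dimmest 25% in leaf held 1 of the lower and 9 of the higher numbers. By contrast, the count at least 2-fold higher in cells was 12 among the lower and 13 among the higher numbers, and the median difference was -0.74 and -0.75.

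Single features broke the trend of level with number at both ends. Osconst4 had only 319.5 in leaf and 543 in cells despite its low number, and Osconst5 had 1539 and 3033. Osconst75, near the end of the numbering, had 2121 in leaf and 3937 in cells. Osconst74 and Osconst77, in contrast, followed the trend: they were dim in leaf, with 158 and 250.5, and had 434 and 946 in cells. The order by number was thus a loose order by signal, and the labels do not say what the number counts or ranks.

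**Figure D4:**
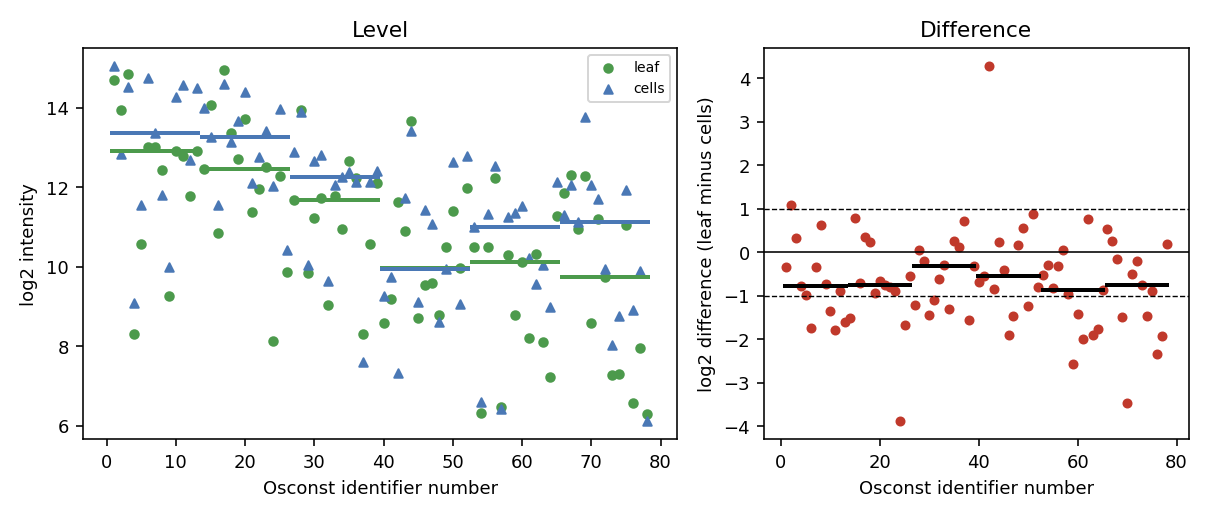
Left, log2 intensity of each Osconst feature in leaf (circles) and cells (triangles) against its identifier number; horizontal bars are medians of sets of 13 consecutive numbers. Right, the log2 difference (leaf minus cells) against the number, with bars for the set medians and dashed lines at 2-fold. Low numbers are brighter on both arrays, but the set medians of the level do not fall at every step and in cells rise after numbers 40 to 52. The set medians of the difference stay between -0.86 and -0.30.

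The classes differed in brightness, so the share within 2-fold was also compared at like brightness, with all 1000 features divided by mean log2 intensity into 4 bins of equal size. In the dimmest bin 7 of 10 Osconst features (70.0%) lay within 2-fold, and 61.2% of OsL and 59.5% of OsSC features did too, so the classes were close there. In the second bin the shares were 62.5% for Osconst (10 of 16), 23.7% for OsL and 33.6% for OsSC. In the third they were 64.7% (11 of 17), 18.2% and 34.3%. In the brightest bin, which held 35 of the 78 Osconst features, they were 65.7% (23 of 35), 45.7% and 40.7%. The Osconst share thus hardly changed with brightness, and it exceeded the other classes most in the middle bins. In the brightest bin 0 of the 35 Osconst features were at least 4-fold apart, while 40.2% of OsL and 24.4% of OsSC features were. These shares have no replicate behind them, and the smaller sets hold few features.

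**Figure D5:**
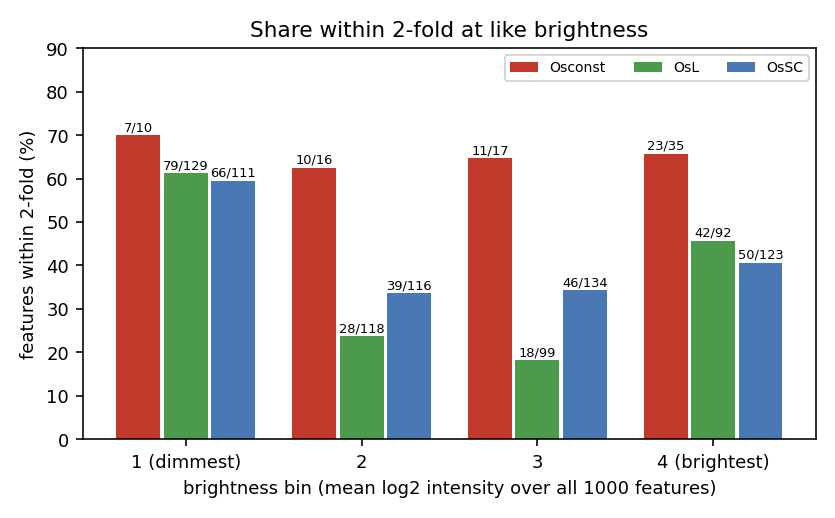
Share of features within 2-fold (vertical axis, percent) in each of 4 equal brightness bins of mean log2 intensity over all 1000 features (horizontal axis), by identifier prefix; the numbers above the bars are features within 2-fold over features in that bin. Osconst bars stand between 62.5% and 70.0% in every bin, while the OsL and OsSC bars are close to them only in the dimmest. The bins use the mean of both arrays, so features far apart between the arrays tend to fall in the middle bins.

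Differences like those of the Osconst features were also common among the OsSC features. The central range of Osconst differences, from their 10th to their 90th percentile, ran from -1.83 to 0.54. It contained 57.9% of OsSC features and 32.0% of OsL features. Within 2-fold of the Osconst median were 57 Osconst features (73.1%), 53.9% of OsSC and 25.3% of OsL. Differences in the Osconst range were thus found in all 3 classes, more often in OsSC than in OsL on these 2 arrays.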

How the data were processed

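Per the labels, biotin-labelled cRNA from 1 mature leaf sample and 1 suspension-cultured cell sample was hybridised, 1 array each. The authors' deposited values are intensities on a linear scale, 1 per feature and array. The submitters' processing notes name RMA, with no version or settings. RMA usually ends in log2 values, but these reached 60143, and the probes per feature, any later scaling and background readings are not stated in the labels or the table. RMA can compress ratios of dim features. The table had 0 missing values.

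Log2 intensities, leaf minus cells differences and percentile ranks were computed without a pseudocount or filter in Python 3.11.15 with statsmodels 0.14.6, scipy 1.17.1, pandas 2.3.3 and numpy 2.4.6 (figures with matplotlib 3.10.9). With 1 array per group no test was possible, and the number of arrays limits the precision. Shares are set beside those of all 1000 features. The calculations were tested on simulated data. Identifiers were looked up among RefSeq genes of the rice assembly ASM3414082v1.

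The members, lists and alternatives were chosen with earlier results of these data known. Named features were the 8 farthest towards cells, all past 2-fold towards leaf, the 6 nearest equal, the 5 brightest and 5 dimmest, those dim on both arrays, the 3 largest rank shifts each way, the 5 lowest and 5 highest numbers, and 2 on each side of the 2-fold line. Outside these rules, the Osconst features brightest on each array were also named in comparing the order on the arrays. Alternatives were centring, quantile normalization, loess (span 0.4), a pseudocount of 16, a floor or filter at the lower quartile, and other thresholds.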

Additional observations from a re-analysis of the deposited data

How the results depend on the processing

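No result was tested against replicates, and no array could be left out. No paired analysis was possible because each group has 1 array. The Osconst median difference (-0.74) was -0.49 centred on all features, -0.25 after loess and, by construction, 0 centred on Osconst. The count at least 2-fold higher in cells (25) was 10 centred on Osconst, 44 at a 1.5-fold threshold and 13 at 3-fold. Towards leaf the count (2) was 1 after quantile normalization, 7 after loess, 11 centred on Osconst, 5 centred on all features, 7 at 1.5-fold and 1 at 3-fold. Within the threshold, 51 became 27 at 1.5-fold and stayed between 48 and 64 otherwise. The 10 features within 0.25 of equality became 23 centred on Osconst and 19 after loess. Those at least 4-fold apart (5) were 3 centred on Osconst and 10 after quantile normalization; the settings for these last 2 counts and for single features were chosen after seeing the data. The SD of the Osconst differences (1.11) was 0.89 without the 2 features farthest from the median, and the interquartile range was 1.40. The cause of the shifts under other scalings was not tested. Rank medians and the correlations with identifier number moved by at most 5 points and 0.1. Of the features named by the stated rules, all 13 at least 2-fold apart kept their direction under the 6 settings run. Of these 13, 10 stayed past 2-fold when centred on Osconst. The 6 features among the brightest 10 in cells alone were not run singly under these settings. With the floor, Osconst74 (-0.60) and Osconst76 (-0.76) fell under 2-fold. Signal over background is unknown, so depth of signal limits what can be said of the dimmest features.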
